A study of Mus musculus with 6 samples.

Results

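The genes described here encode the enzymes that build cholesterol and fatty acids and the proteins that switch those enzymes on. They were a fixed list of 34 gene symbols, and all 34 were found among the 55536 genes of the count table. All 34 were given an adjusted p-value, so none was lost to a filter on low counts. RNA came from whole isolated pancreatic islets of mice, in 2 groups of 3 libraries. Control mice were Klf4+/+;Gcg-iCre, and knockout mice were Klf4fl/fl;Gcg-iCre, of the strain that the design text spells C57B1/6J. Both groups carried the iCre recombinase driven by the glucagon gene, which acts in alpha cells, so controls and knockouts shared the driver and differed in the floxed Klf4 alleles. The labels give neither age nor sex, and do not say that each library came from a separate animal; p-values then measure the spread between these libraries only. The design asks how the transcription factor KLF4 regulates gene expression in alpha cells. Where 3 values of a group are listed, they stand in the order of replicates 1 to 3.

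Cells sense sterols in the endoplasmic reticulum. When sterols are scarce, the escort protein SCAP carries the transcription factors SREBP1 and SREBP2 (genes Srebf1 and Srebf2) to the Golgi, where they are cut and released to the nucleus; when sterols are plentiful, INSIG proteins hold SCAP back. SREBP2 chiefly drives the cholesterol enzymes and SREBP1 chiefly the fatty acid enzymes. In islets, the cytosolic step that turns citrate into acetyl-CoA, by ATP citrate lyase, also lies on the path that exports carbon from the mitochondria of glucose-stimulated beta cells.

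Promoter sequences are shown for 4 of the members with an entry: 3 cholesterol enzymes whose counts leaned lower in the knockout libraries, and Acacb, the member that passed the test. RefSeq promoter sequences on GRCm38.p6, each 300 bases from 250 before to 50 after a transcription start, were matched by symbol for 27 of the 34 members; those without an entry were Fdps, Fdft1, Sqle, Stard4, Scd1, Scd2 and Fads1. Each is read 5′ to 3′ on the gene's own strand. Capitals mark a sterol regulatory element, searched as TCACNCCAC, and the CCAAT box, the site of the factor NF-Y, searched as CCAAT. Both motifs were searched on both strands, so ATTGG is a CCAAT box read from the other strand, and the 2 motifs share no letters where both occur here. The regions are chr13:119690101-119690400 on the plus strand for Hmgcs1, chr8:64733529-64733828 on the minus strand for Msmo1, chr5:4104648-4104947 on the minus strand for Cyp51 and chr5:114165268-114165567 on the plus strand for Acacb. The Acacb window surrounds a RefSeq start 18983 bases downstream of the first base of the annotated gene, inside the gene.
Hmgcs1: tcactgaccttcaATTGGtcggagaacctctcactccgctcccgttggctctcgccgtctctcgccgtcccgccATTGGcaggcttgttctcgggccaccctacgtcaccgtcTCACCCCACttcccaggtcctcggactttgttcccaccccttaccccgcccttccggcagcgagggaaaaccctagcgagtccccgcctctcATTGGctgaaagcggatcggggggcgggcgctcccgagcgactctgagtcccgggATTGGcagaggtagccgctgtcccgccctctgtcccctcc
Msmo1: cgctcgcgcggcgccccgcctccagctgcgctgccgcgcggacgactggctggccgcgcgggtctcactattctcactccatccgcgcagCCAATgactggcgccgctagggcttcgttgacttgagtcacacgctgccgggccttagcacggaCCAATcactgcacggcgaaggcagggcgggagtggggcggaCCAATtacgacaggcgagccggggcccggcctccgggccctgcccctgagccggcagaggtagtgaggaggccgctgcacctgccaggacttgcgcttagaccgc
Cyp51: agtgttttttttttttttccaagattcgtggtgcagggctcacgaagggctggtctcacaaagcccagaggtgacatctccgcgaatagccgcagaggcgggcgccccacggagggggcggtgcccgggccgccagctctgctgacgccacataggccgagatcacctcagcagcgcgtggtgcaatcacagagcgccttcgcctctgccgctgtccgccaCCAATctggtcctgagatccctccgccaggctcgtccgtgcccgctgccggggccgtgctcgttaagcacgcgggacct
Acacb: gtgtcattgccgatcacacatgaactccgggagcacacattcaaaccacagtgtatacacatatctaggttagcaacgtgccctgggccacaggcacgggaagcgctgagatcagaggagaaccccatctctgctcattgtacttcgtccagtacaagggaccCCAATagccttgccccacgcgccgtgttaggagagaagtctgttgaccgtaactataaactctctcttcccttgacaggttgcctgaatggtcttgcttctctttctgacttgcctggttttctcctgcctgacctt
The Hmgcs1 window held 1 sterol regulatory element, TCACCCCAC, whose first base lay 137 bases before the start, and 4 CCAAT boxes. Msmo1 held 3 CCAAT boxes, and Cyp51 and Acacb held 1 each. Over all members, 1 of 27 had a promoter with this sterol regulatory element, against 1.44% of 27025 genes with a promoter in the table. Only this string was searched, so a window without it may hold another form of the element. A CCAAT box was present in 22 of 27 members (81.5%) and in 41.1% of all genes, and the GC box GGGCGG in 22 of 27 members and 38.2% of all genes. The E-box CACGTG was present in 5 of 27 members (18.5%) and in 8.09% of all genes. A gene was counted if any of its windows matched. Per window, a CCAAT box was in 63.9% of 36 member windows and 37.4% of all 32851 windows. The GC box was in 72.2% and 35.7%, and the E-box in 16.7% and 7.15%. These are matches of letters in a window and not measured binding.

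The libraries held between 101277200 and 110243918 counts, and the members between 96 and 177099 counts per library, so the spread between libraries and not counting error set the precision for most of them. Defining markers of islet endocrine cells were abundant: 6 beta-cell genes, Ins1 and Ins2 among them, summed to between 182620 and 201440 CPM (counts per library total, scaled up) in controls and between 198642 and 202923 in knockouts. Klf4 itself was at 3148, 2879 and 2015 normalized counts in controls and at 2340, 2540 and 2277 in knockouts; the groups overlapped (log2 fold change -0.17 ± 0.15 SE, DESeq2 adjusted p = 0.774), so the label is not checked by this count. The X-linked Xist ran from 77938 to 108105 normalized counts in controls and from 12.4 to 30.2 in knockouts, while the Y-linked Ddx3y had 0 counts in each control and 5599 to 6265 in knockouts. Sex and genotype divided the 6 libraries identically and cannot be told apart in any result below. Liver transcripts stood apart in knockout replicates 1 and 2, where Alb reached 51331 and 1743 normalized counts against 122 in knockout replicate 3 and 103 to 213 in controls. Results that rest on these libraries are given with and without them. As a list, 6 of 6 liver genes had positive fold changes and 4 passed; their summed level ran from 1.54 to 2.52 CPM in controls and from 1.77 to 857 in knockouts. The 6 acinar genes also all had positive fold changes, with 0 past the threshold, and summed to between 3903 and 8008 CPM in controls and between 10199.7 and 13843 in knockouts. Of 6 mesenchymal genes 4 passed upward (462 to 621 and 888 to 967 CPM), and of 6 alpha-cell genes 3 passed downward, Gcg among them (38273 to 56315 and 29264 to 35253 CPM). In the alpha-cell list Gcg makes up most of the sum, and the 2 positive fold changes were those of Gc and Slc7a2, both near 0. Of 4 macrophage genes all 4 had positive fold changes and 1, Cd68, passed (32.3 to 36.9 CPM in controls and 37.8 to 50.6 in knockouts). Of 4 duct genes 3 were positive and 1, Krt7, passed (242 to 263 and 277 to 334 CPM). These calls are from DESeq2. In edgeR the adjusted p was 0.402 for Gcg, 0.314 for Cd68 and 0.315 for Krt7, while the mesenchymal Col1a1 and Col1a2 passed (0.0245 and 0.00819). The 6 adipocyte genes summed to between 14.8 and 17.6 CPM in controls and between 20.7 and 24.8 in knockouts, nearly all of it Fabp4. The summed acinar, mesenchymal, macrophage, duct and adipocyte levels were higher in every knockout library than in every control, and the alpha-cell sum was lower. The part of all these transcripts in the results below, those of Acacb and Abca1 included, was not tested.

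Few of the biosynthesis genes differed between the genotypes in RNA of whole islets. Such counts pool all islet cells, so a difference within alpha cells alone was not measured. Of the 34 members, 1 was higher in the knockout libraries and 0 were lower at a DESeq2 adjusted p of 0.05, against 2.19% of 17797 genes that passed in either direction (1.53% higher and 0.657% lower). The share of members called higher, 2.94%, is near that background. At an unadjusted p under 0.05 there were 8 members, 2 higher and 6 lower, or 23.5% of the list against 11.5% of all genes (6.51% higher and 5.03% lower). The edgeR quasi-likelihood test called 0 members, with 7 at an unadjusted p under 0.05, and called 0.115% of all genes it tested. The median log2 fold change of the members was -0.07 (-0.13 without control replicate 1 and -0.014 without control replicate 3), beside -0.01 over all genes with an adjusted p, and 22 of 34 fold changes (64.7%) were below 0, beside 51.6% of all genes. Groups did not overlap for 3 members (8.82%), 1 of them higher and 2 lower, against 18.0% of 15811 genes averaging at least 50 normalized counts.

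**Figure D1:**
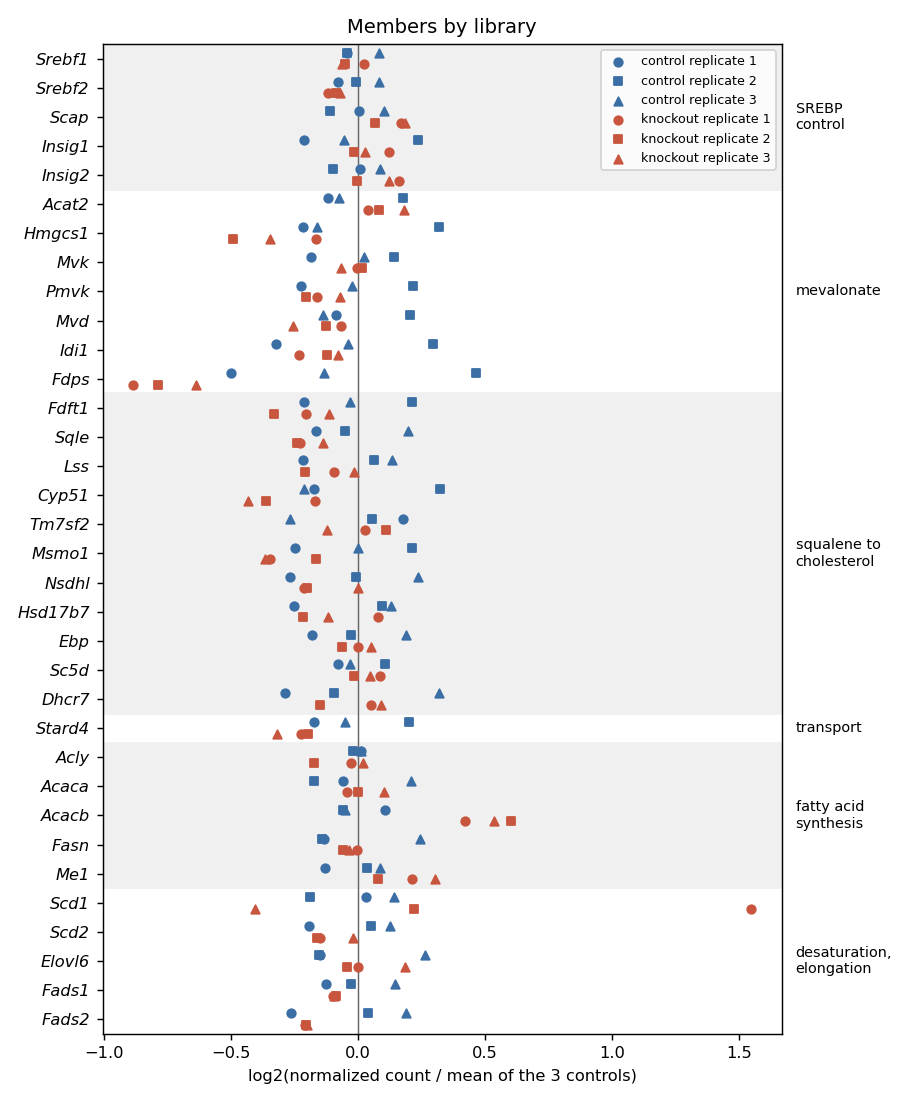
Normalized count of each of the 34 members in each of the 6 libraries, as log2 of the ratio to the mean of the 3 control libraries (horizontal axis), with members grouped by role (vertical axis). Blue and red symbols are control and knockout libraries and shapes are replicate numbers; Acacb sits apart in the 3 knockout libraries, Scd1 in knockout replicate 1, and for most cholesterol enzymes the controls spread more widely than the knockouts.

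**Figure D2:**
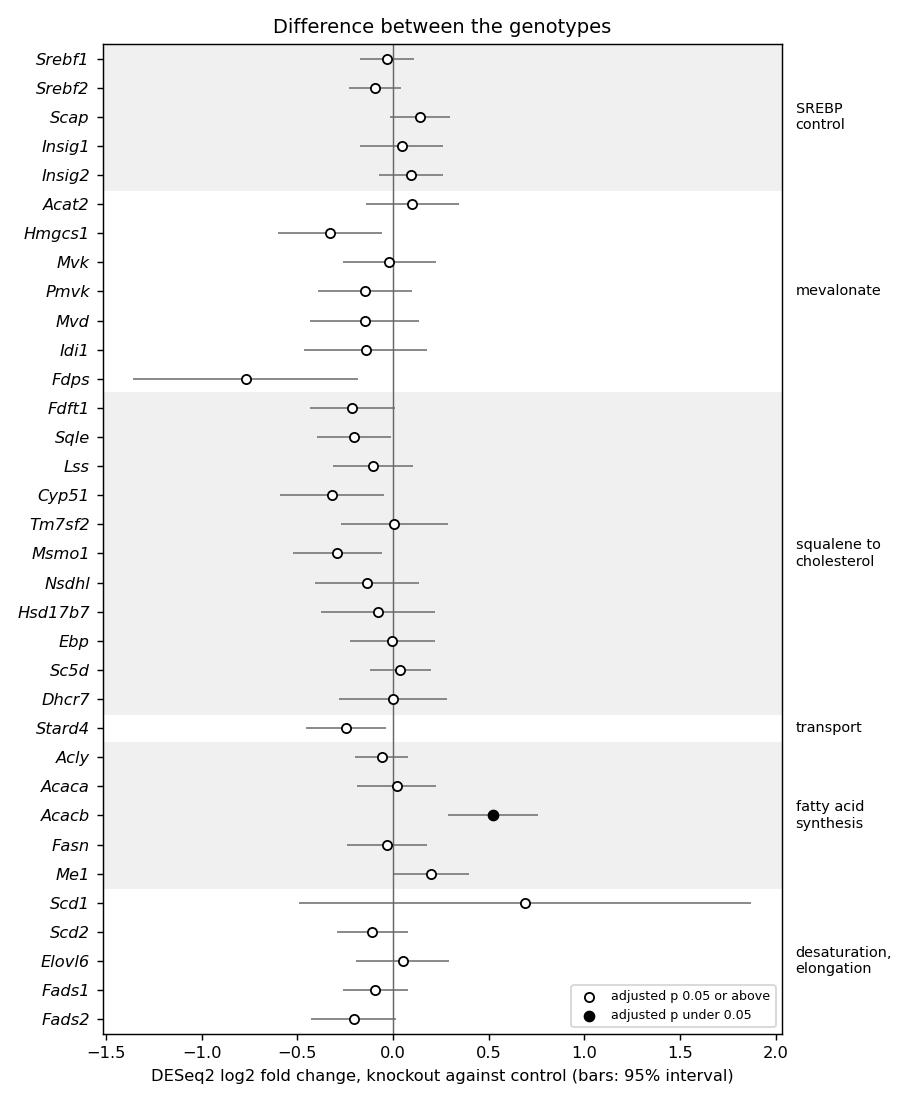
DESeq2 log2 fold change of knockout against control (horizontal axis) with its 95% interval for each member, grouped by role. The filled point is the member with an adjusted p under 0.05, Acacb at 0.52; the other 33 are open.

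None of the 5 sensing and processing genes passed the test. Srebf2 (chromosome 15, 82147181 to 82205379, GRCm38) was at 20213, 21221 and 22625 normalized counts in controls and at 19688, 20072 and 20316 in knockouts. Knockout replicates 1 and 2 lay below every control and knockout replicate 3 lay within the control range, at -0.09 ± 0.07 on the log2 scale (SE, DESeq2 adjusted p = 0.706) and a 95% interval from -14.7% to 3.06%. Without control replicate 3 the fold change of Srebf2 was -0.049. Srebf1 (chromosome 11, 60199089 to 60222581) was at 13290, 13303 and 14505 in controls and at 13916, 13203 and 13089 in knockouts. Its log2 fold change was -0.03 ± 0.07 (SE, adjusted p = 0.951), with an interval from -11.2% to 7.75%. Srebf1 overlaps Rai1 on the opposite strand, and the strand setting of the counting is not given in the sources used here, which leaves its count uncertain.

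Scap (chromosome 9, 110333288 to 110384950), the escort of both factors, was at 10538, 9736 and 11284 normalized counts in controls and at 11822, 11006 and 11959 in knockouts. Only control replicate 3 reached into the knockout range (log2 fold change 0.14 ± 0.08 SE, DESeq2 adjusted p = 0.534). Of the 50-base windows in annotated Scap transcripts, 9.96% also occur in transcripts of 5830462I19Rik on the opposite strand, so this count is uncertain. Insig1 (chromosome 5, 28071363 to 28078662), itself a classical SREBP target that feeds back on the pathway, was at 11749, 16013 and 13082 in controls and at 14810, 13467 and 13859 in knockouts. The controls held both the lowest and the highest value, and the fold change was 0.04 ± 0.11 on the log2 scale (SE, adjusted p = 0.956; interval -11.2% to 19.8%). Insig2 (chromosome 1, 121304353 to 121332589), the form less dependent on SREBP, was at 4187, 3893 and 4417 in controls and at 4652, 4148 and 4531 in knockouts (0.09 ± 0.09 SE, adjusted p = 0.796). Each had an unadjusted p above 0.05 in DESeq2.

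In the mevalonate pathway, which carries acetyl-CoA to the isoprenoid units of cholesterol, 6 of 7 fold changes were below 0 and 0 passed the test. Hmgcs1 (chromosome 13, 119690379 to 119708260), which makes HMG-CoA and carried the sterol regulatory element shown above, was at 7308, 10584 and 7588 normalized counts in controls and at 7571, 6030 and 6681 in knockouts. Control replicate 2 stood above the other 5 libraries, and knockout replicate 1 lay within the control range. The log2 fold change was -0.33 ± 0.14 (SE, DESeq2 adjusted p = 0.263), and without control replicate 2 it was -0.14. Of the 50-base windows in annotated Hmgcs1 transcripts, 11.6% also occur in transcripts of other genes, so this count is uncertain.

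Fdps (chromosome 3, 89093588 to 89101959), which makes farnesyl diphosphate at the branch between sterols and other isoprenoids, had the most negative fold change of the list. It was at 121, 236 and 156 normalized counts in controls and at 92.6, 99.0 and 110 in knockouts, with no overlap between the groups. The log2 fold change of -0.77 ± 0.30 (SE) did not pass (DESeq2 adjusted p = 0.194), and without control replicate 2, the highest library, it was -0.46. Of the 50-base windows in its annotated transcripts, 26.2% also occur in transcripts of other genes on either strand. Most of these lie in Gm43738, which Fdps overlaps on the same strand, so the Fdps count is uncertain. Acat2, the cytosolic thiolase that starts the pathway, shares 39.1% of its windows, chiefly with its paralog Acat3, and Idi1, the isomerase of the isoprenoid units, shares 25.3%; both counts are uncertain as well.

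The other 5 mevalonate genes had log2 fold changes between -0.15 and 0.10. The kinases Mvk and Pmvk were at 892 ± 101 and 1562 ± 239 normalized counts in controls and at 881 ± 26.5 and 1412 ± 66.7 in knockouts (n = 3 each, SD). Mvd, the decarboxylase, was at 623 ± 82.0 and 563 ± 37.3, Idi1 at 754 ± 162 and 683 ± 37.1, and Acat2 at 888 ± 102 and 953 ± 48.0. In each case the difference was smaller than the spread of the controls.

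From squalene to cholesterol, 8 of 11 fold changes were below 0 and again 0 passed, while 3 had an unadjusted p under 0.05 in DESeq2: Sqle, Cyp51 and Msmo1. Sqle (chromosome 15, 59315077 to 59331192), squalene epoxidase and a rate-limiting enzyme of the late pathway, was at 11360, 12280 and 14575 normalized counts in controls and at 10873, 10784 and 11575 in knockouts. Its log2 fold change was -0.20 ± 0.10 (SE, DESeq2 adjusted p = 0.399; interval -23.9% to -0.556%), with control replicate 1 inside the knockout range. Without control replicate 3, the highest library, it was -0.093. Cyp51, the lanosterol demethylase, was at 4986, 7027 and 4846 in controls and at 4990, 4370 and 4164 in knockouts (-0.32 ± 0.14 SE, adjusted p = 0.293). As for Hmgcs1, control replicate 2 was the high library, and without it the fold change of Cyp51 was -0.13. Its exons overlap those of Akap9 on the opposite strand, which leaves the Cyp51 count uncertain.

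Msmo1 (chromosome 8, 64718139 to 64733792), the sterol methyl oxidase that acts after Cyp51, was at 5517, 7605 and 6565 normalized counts in controls and at 5163, 5845 and 5086 in knockouts. Only knockout replicate 2 overlapped the controls (log2 fold change -0.29 ± 0.12 SE, DESeq2 adjusted p = 0.225). Without control replicate 1, the lowest control, the fold change was -0.40 and Msmo1 passed (adjusted p = 0.0158), whereas without control replicate 2, the highest, it was -0.17 (adjusted p = 0.754). Fdft1, squalene synthase, was at 6503 ± 970 in controls and 5611 ± 420 in knockouts (n = 3 each, SD; -0.21 ± 0.11 SE), with a fold change of -0.094 without control replicate 2; it shares sequence with the abundant Ctsb on the opposite strand, which leaves its count uncertain.

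The remaining 7 enzymes, Lss, Tm7sf2, Nsdhl, Hsd17b7, Ebp, Sc5d and Dhcr7, had log2 fold changes between -0.14 and 0.04. When 1 library was left out, Lss ran from -0.21 to -0.034 and Nsdhl from -0.25 to -0.0033. Hsd17b7 then ran from -0.19 to -0.012 and Sc5d from 7.6e-05 to 0.095. Tm7sf2 shares 9.87% of its 50-base windows with Vps51, which it overlaps on the same strand, so its count is uncertain. Dhcr7, which makes cholesterol in the last step of one branch, had equal group means, 3014 ± 666 in controls and 3015 ± 266 in knockouts, and its interval ran from -17.7% to 21.6%. Nsdhl and Ebp, 2 enzymes encoded on the X chromosome, were at 1411 ± 244 and 1889 ± 245 normalized counts in controls and at 1284 ± 108 and 1885 ± 76.1 in knockouts. Lss, lanosterol synthase, was at 4711 ± 590 in controls and 4376 ± 293 in knockouts (n = 3 each, SD, DESeq2 adjusted p = 0.821).

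Stard4 (chromosome 18, 33199355 to 33213862), a carrier that moves cholesterol between membranes and an SREBP2 target, was lower in every knockout library than in every control. It was at 3701, 4797 and 4024 normalized counts in controls and at 3571, 3643 and 3345 in knockouts. The log2 fold change of -0.25 ± 0.11 (SE) did not pass (DESeq2 adjusted p = 0.29), and without control replicate 2 it was -0.13. Stard4 and Fdps were the 2 members with lower, non-overlapping knockout values; 8.54% of genes averaging at least 50 normalized counts showed that.

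The control libraries differed from each other in the cholesterol enzymes by more than the knockout libraries did. Taking the 18 enzymes of the mevalonate and squalene steps, the median log2 ratio to the control mean was -0.20 in control replicate 1, 0.17 in control replicate 2 and -0.02 in control replicate 3, and -0.12, -0.17 and -0.08 in knockout replicates 1 to 3. Control replicate 1 thus lay below all 3 knockout libraries by this measure, and the groups overlapped. Control replicate 1 was the lowest library for 10 of the 18 enzymes and control replicate 2 the highest for 10, against 15.0% and 17.1% of genes averaging at least 50 normalized counts. All 18 had a larger SD among controls than among knockouts, beside 64.7% of those genes. For the 10 fatty acid enzymes the same held for 6, and control replicate 3 was the highest library for 6, beside 25.6% of those genes, the largest such share of any library. The 18 genes share libraries and are not independent replicates.

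Among the fatty acid enzymes, Acacb changed and its neighbours in the pathway did not pass. Acacb (ENSMUSG00000042010, chromosome 5, 114146535 to 114250761, plus strand, GRCm38) encodes acetyl-CoA carboxylase 2, the mitochondrial-surface form whose product malonyl-CoA restrains the entry of fatty acids into mitochondria. It was at 672, 599 and 603 normalized counts in controls and at 836, 948 and 906 in knockouts. Every knockout library was above every control, as for 9.42% of genes averaging at least 50 normalized counts. Acacb rose by 0.52 ± 0.12 on the log2 scale (SE, DESeq2 adjusted p = 0.00218), a change of 43.5% with a 95% interval from 21.8% to 69.0%.

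The rise of Acacb was called in each of the 6 fits without 1 library, but not in edgeR, where the fold change was 0.52 with an adjusted p of 0.177 (0.00095 unadjusted). Knockout replicate 1, the library with the most liver transcripts, held the lowest of the 3 knockout values, and without it the fold change was 0.57 (DESeq2 adjusted p = 0.00948). Without knockout replicates 1 and 2 it was 0.54 on the single remaining knockout library, which is assumed to vary like the controls, and did not pass (adjusted p = 0.562). Over the 14 alternatives the adjusted p ran from 0.000924 to 0.562. In whole islets, a change in the number of cells that carry Acacb and a change in RNA per cell cannot be told apart.

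Acaca (chromosome 11, 84129672 to 84401651), acetyl-CoA carboxylase 1, the cytosolic form that feeds fatty acid synthesis, was at 6140, 5682 and 7389 normalized counts in controls and at 6205, 6400 and 6874 in knockouts. Its groups overlapped fully (log2 fold change 0.02 ± 0.11 SE, DESeq2 adjusted p = 0.982; interval -12.1% to 17.0%). Per length of exon, Acacb stood at 19.4%, 18.7% and 14.5% of the level of Acaca in controls and at 23.9%, 26.2% and 23.4% in knockouts. This ratio was chosen after the values were seen, and 30.4% of the 50-base windows of Acaca also occur in transcripts of other genes, so it is a description.

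**Figure D3:**
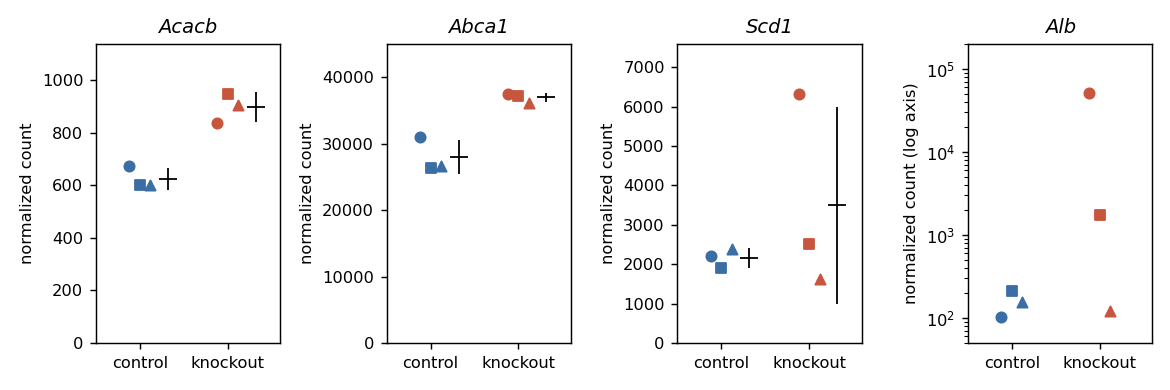
Normalized counts per library of Acacb, the sterol exporter gene Abca1, Scd1 and the liver gene Alb (log axis) in control and knockout islets; shapes are replicate numbers 1 (circle), 2 (square) and 3 (triangle), and black marks beside the points of the first 3 panels are the mean and SD of 3 libraries. The knockout libraries lie above the controls for Acacb and Abca1, whereas the high Scd1 value belongs to knockout replicate 1, which also has the highest Alb count.

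Fasn (chromosome 11, 120805846 to 120824547), the synthase that assembles palmitate, was at 20300, 20180 and 26374 normalized counts in controls and at 22233, 21389 and 21760 in knockouts. The knockout libraries lay within the control range (log2 fold change -0.03 ± 0.11 SE, DESeq2 adjusted p = 0.966; interval -15.3% to 12.9%). Acly, ATP citrate lyase, was at 172042, 168018 and 171809 in controls and at 167264, 151288 and 172635 in knockouts (-0.06 ± 0.07 SE, adjusted p = 0.866; interval -12.9% to 5.76%). Me1, malic enzyme, a source of NADPH for synthesis, was at 2150, 2410 and 2494 in controls and at 2723, 2483 and 2900 in knockouts. One knockout library overlapped the controls, and the fold change of 0.20 ± 0.10 had an unadjusted p of 0.0437 and did not pass (adjusted p = 0.409); 28.3% of its 50-base windows occur in other genes' transcripts.

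Scd1 (chromosome 19, 44394455 to 44407879), the stearoyl-CoA desaturase that makes oleate, had the most positive and least certain fold change. It was at 2212, 1895 and 2387 normalized counts in controls and at 6330, 2521 and 1633 in knockouts. The knockout libraries held both the highest and the lowest value, and the fold change, 0.69 ± 0.60 on the log2 scale (SE, DESeq2 adjusted p = 0.774), had an interval from -28.8% to 266%. Without knockout replicate 1 it was -0.06. Scd1 was high in the library with 51331 normalized counts of Alb, and the liver-rich elongase gene Elovl3, named after its values were seen, followed the same libraries, with 0 counts in each control and 140, 26.8 and 0 normalized counts in knockout replicates 1 to 3. The part of liver transcripts in the Scd1 value was not tested. The adipocyte genes Adipoq and Plin1 held at most 2 and 6 counts in any library, and Lep and Cfd held 0 in all. Cidec ran from 1.89 to 16.5 normalized counts, with its highest value in knockout replicate 2, so these 5 adipocyte markers were at or near 0. Fabp4, which other cells also express, rose (log2 fold change 0.46, DESeq2 adjusted p = 0.0118), but was not called in edgeR (adjusted p = 0.231).

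Scd2, the desaturase gene with the higher level per length, was at 21258, 25201 and 26497 normalized counts in controls and at 21906, 21759 and 23977 in knockouts (log2 fold change -0.11 ± 0.09 SE, DESeq2 adjusted p = 0.771). The fold change of Scd2 was -0.20 without control replicate 1 and -0.043 without control replicate 3. Elovl6, which lengthens palmitate, was at 4556 ± 795 in controls and 4717 ± 408 in knockouts (n = 3 each, SD). Fads1 and Fads2, the desaturases of polyunsaturated fatty acids, were at 6759 ± 654 and 4560 ± 712 in controls and at 6336 ± 25.9 and 3954 ± 13.8 in knockouts. For Fads2 control replicate 1, at 3795, was below all 3 knockout libraries and the other 2 controls above them (-0.21 ± 0.11 SE, adjusted p = 0.499). Without that control, Fads2 passed at -0.32 (adjusted p = 0.00902), whereas without control replicate 3 it was -0.10 (adjusted p = 0.673).

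Levels can be compared between genes only per length, here as CPM per kb of annotated exon. On that scale Acly led the list, at 309 ± 10.4 in controls and 298 ± 25.4 in knockouts (n = 3 each, SD). Insig1 at 42.0 ± 6.36 and Scd2 at 42.5 ± 3.63 in controls came next and did not differ beyond their spread, followed by Srebf2 at 28.4 ± 0.834, Srebf1 at 23.2 ± 0.744, Sqle at 21.9 ± 2.26, Fasn at 19.4 ± 2.63 and Hmgcs1 at 17.7 ± 3.70. From Srebf1 to Hmgcs1 each neighbour lay within the spread of the next. All other members lay between 1.24 (Hsd17b7) and 14.7 (Fdft1) in controls. At the bottom stood Acacb at 0.621 ± 0.058 in controls and 0.893 ± 0.052 in knockouts, and Fdps, whose count is uncertain, at 0.387 ± 0.131 and 0.229 ± 0.023. The member that passed the test was thus among the least abundant of the list on this scale.

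**Figure D4:**
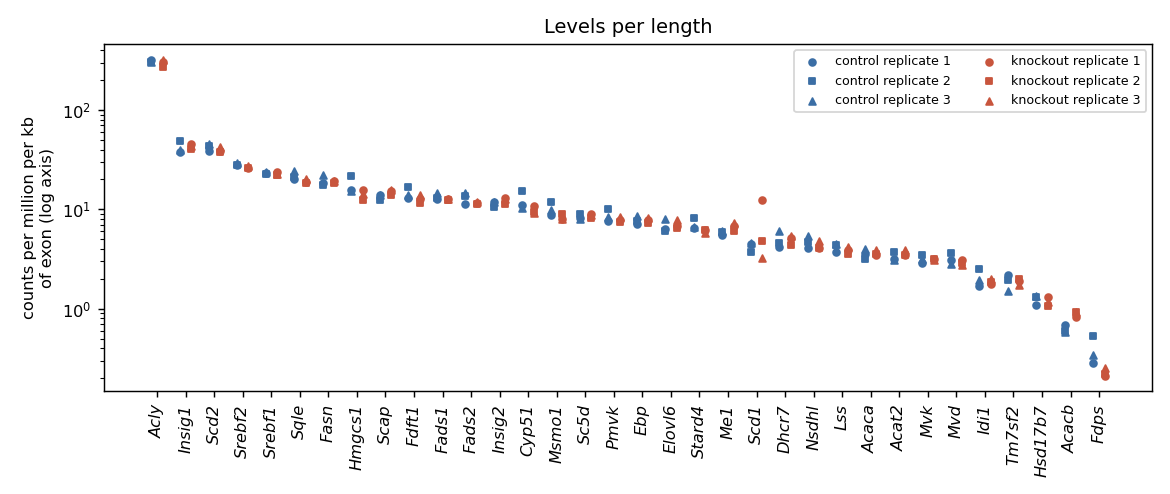
Level of each member per library in CPM per kb of exon (vertical log axis), ordered by the mean over 6 libraries, with blue control and red knockout symbols. Acly lies far above the rest, Acacb and Fdps lie lowest, and the libraries of both groups mostly overlap. The Fdps count is uncertain.

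A second list of 59 genes of the same pathways, with steps before, beside and after the members, also had 1 gene called. Of these, 1 rose (1.69%, beside 1.53% of all genes), 0 fell and 58 did not pass, 1 of which, Scd4, was given no adjusted p. The share called is thus near the background. At an unadjusted p under 0.05 there were 8 upward (13.6%, beside 6.51% of all genes) and 2 downward (3.39%, beside 5.03%). Groups did not overlap for 11 of the 57 that averaged at least 50 normalized counts (19.3%, beside 18.0%). The edgeR test called 0 of the 59, with 9 at an unadjusted p under 0.05. The gene that rose was Abca1, which encodes the membrane transporter that exports cholesterol to apolipoprotein A-I and is induced by the sterol-sensing LXR receptors. It was at 31017, 26430 and 26664 normalized counts in controls and at 37539, 37273 and 36165 in knockouts, with no overlap. Abca1 rose by 0.40 ± 0.08 on the log2 scale (SE, DESeq2 adjusted p = 0.000212), a change of 31.9% with an interval from 18.2% to 47.3%. In edgeR the adjusted p was 0.172. Without knockout replicate 1 the fold change was 0.39 (DESeq2 adjusted p = 0.0208). Across the fits without 1 library the fold change ran from 0.36 to 0.48 and the DESeq2 adjusted p from 3.13e-13 to 0.0208.

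The other 6 genes of the LXR and efflux group, Nr1h2, Nr1h3, Abcg1, Mylip, Soat1 and Tmem97, did not pass, and of these Tmem97 alone had an unadjusted p under 0.05 (0.26 ± 0.13 SE on the log2 scale, DESeq2 adjusted p = 0.396). Abcg1, the other LXR-induced exporter, had a log2 fold change of -0.03 ± 0.07 and Mylip, the LXR-induced ligase, one of 0.07 ± 0.11 (SE). None of the 9 genes of SREBP activation and turnover had an unadjusted p under 0.05 in DESeq2, with fold changes between -0.07 and 0.11. The 4 regulators of fatty acid genes, Mlxipl, Mlxip, Thrsp and Mid1ip1, all had positive fold changes, with a median of 0.19, and 2 had an unadjusted p under 0.05: Mlxip at 0.25 ± 0.09 and Thrsp at 0.36 ± 0.16 (DESeq2 adjusted p = 0.113 and 0.286). Mlxip passed without control replicate 1 (0.32, adjusted p = 0.0249). Of the 16 other elongase and desaturase genes 0 passed and 4 had an unadjusted p under 0.05: Elovl7, Scd3, Elovl3 and, downward, Tecr. Elovl7, an elongase of very long chains, was at 626, 375 and 605 normalized counts in controls and at 693, 835 and 937 in knockouts. Its groups did not overlap, and the log2 fold change of 0.62 ± 0.20 (SE) had a DESeq2 adjusted p of 0.0706, which passed only without control replicate 3 (0.72, adjusted p = 0.0334) or at a threshold of 0.1. Scd3, a further stearoyl-CoA desaturase, was at 0.58 ± 0.22 on the log2 scale (SE, DESeq2 adjusted p = 0.188), with no overlap between groups, and passed without control replicate 3 (adjusted p = 0.0441). Elovl3, whose counts are given above, passed without knockout replicate 3 (adjusted p = 0.0277). Hsd17b12, a reductase of the elongation cycle, was at 5640, 5770 and 7715 normalized counts in controls and at 7534, 7642 and 6932 in knockouts (0.21 ± 0.12 SE, DESeq2 adjusted p = 0.53); without control replicate 3, the highest library, it passed at 0.37 (adjusted p = 1.82e-05). Tecr, the last reductase of the elongation cycle, was at -0.16 ± 0.08 (SE, adjusted p = 0.384), also with no overlap, and passed without control replicate 1 (-0.22, adjusted p = 0.0227). Scd3 shares sequence with Scd1, so its count is uncertain.

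Of the 12 genes of acyl-CoA and glycerolipid synthesis 0 passed, and Lpin1 and Acsl3 had an unadjusted p under 0.05 and no overlap between groups. Lpin1, a phosphatidate phosphatase, was at 0.27 ± 0.10 on the log2 scale (SE, DESeq2 adjusted p = 0.113) and passed without control replicate 3 (0.35, adjusted p = 0.00078). Acsl3, an acyl-CoA synthetase, was at -0.23 ± 0.11 (SE, adjusted p = 0.369); its exons overlap those of Utp14b, so its count is uncertain. The genes of the isoprenoid branch and of acetyl-CoA, citrate and NADPH supply had no unadjusted p under 0.05.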

How the data were processed

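RNA-seq counts of 6 islet libraries, 3 control and 3 knockout, were used. Values are raw read counts per gene as deposited by the authors; reads were trimmed with cutadapt per the file name, and FastQC, STAR, featureCounts, DESeq2 and mm10 are listed, with no versions, in the submitters' processing notes. The strand setting is not given in the sources used here. All 55536 gene IDs match GENCODE M21 (GRCm38), which gave coordinates and exon lengths. Each column name gave group and replicate; 0 columns were unused.

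Following the design text, the main test was DESeq2 1.42.0 in R 4.3.3: all genes with at least 10 counts in total, median-of-ratios size factors, 1 term for genotype, Wald test, unshrunken fold changes, and Benjamini-Hochberg adjustment over all genes, with a threshold of 0.05. Normalized counts are counts divided by the size factor. Alternatives were edgeR 4.0.16 (quasi-likelihood, TMM), TMM factors, other filters, a threshold of 0.1, a replicate block and each library left out; a fit without knockout replicates 1 and 2 was added after the data were seen. Both tools were run on simulated counts as a check of the code. Genes were drawn independently with an assumed spread, so the simulation cannot decide between the tools' calls here. Members and lists were chosen with earlier results of these data known. Members past the threshold and 10 fixed control points (Srebf1, Srebf2, Scap, Insig1, Insig2, Hmgcs1, Sqle, Fasn, Acaca, Scd1) are given in full, as are other pathway genes past the threshold; further members were detailed after their values were seen. Replicates of a group differed by 40.0 to 120 times the chi-square degrees of freedom, far above sampling noise, and all 6 were kept as separate. A floor of 3 counts is 0.0272 to 0.0296 CPM.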

Additional observations from a re-analysis of the deposited data

How the results depend on the processing

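The call of Acacb and that of Abca1 depended on the test. The number of members called higher, 1, became 0 in edgeR and 0 without the 2 libraries with raised liver transcripts, a fit that leaves 1 knockout library; it stayed at 1 in every fit without 1 library. The number called lower, 0, ran from 0 to 2 across those fits, with 2 (Msmo1 and Fads2) without control replicate 1. The number of other pathway genes called higher, 1, became 0 in edgeR, 2 at an adjusted p of 0.1 and 0 without the 2 libraries with raised liver transcripts, and ran from 1 to 5 across the fits without 1 library, with 5 without control replicate 3; the number called lower ran from 0 to 1. Over all genes, 389 calls became 29 in edgeR and ran from 153 to 952 when 1 library was left out. The median log2 fold change of all members ran from -0.13 to -0.014, that of the mevalonate genes from -0.25 to -0.025 and that of the squalene to cholesterol genes from -0.21 to -0.034 across those fits. It ran from -0.052 to 0.076 for the SREBP regulators and from -0.059 to 0.14 for the fatty acid synthesis genes, and was 0.10 for the latter without the 2 libraries with raised liver transcripts. Why these values moved was not tested.

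Of 490 fold changes of the 34 members and Abca1 under the alternatives, 457 kept direction and side of the threshold, 2 newly passed, 4 no longer passed and 27 changed sign, none of the last past the threshold. Other pathway genes that newly passed in a fit without 1 library were Hsd17b12, Elovl7, Lpin1 and Scd3 without control replicate 3, Mlxip and Tecr without control replicate 1, and Elovl3 without knockout replicate 3. Across the fits without 1 library, Srebf1 ran from -0.060 to 0.012, Insig1 from -0.052 to 0.18, Mvk from -0.10 to 0.059, Idi1 from -0.28 to 0.032, Tm7sf2 from -0.11 to 0.10, Ebp from -0.087 to 0.10, Dhcr7 from -0.13 to 0.19, Acaca from -0.059 to 0.14, Fasn from -0.099 to 0.11, Scd1 from -0.060 to 1.03 and Elovl6 from -0.024 to 0.20. Without a change of sign, Scap ran from 0.088 to 0.19, Insig2 from 0.047 to 0.14 and Acly from -0.10 to -0.0044. Without the 2 libraries with raised liver transcripts Tm7sf2 was -0.12, Ebp 0.053, Acly 0.018 and Scd1 -0.41. With the replicate number as a block, Ebp was 0.0034, Acacb 0.52 (DESeq2 adjusted p = 0.0349) and Abca1 0.40 (adjusted p = 1.72e-05), and the block changed no call among the members or the other pathway genes. Same-numbered libraries did not deviate together, with correlations of -0.048, -0.059 and 0.010 over 15811 genes.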
